A study of Mus musculus with 16 samples.

Results

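The BCL2 family sets whether a cell releases cytochrome c from its mitochondria and dies by apoptosis. The effectors BAX and BAK1 open pores in the outer mitochondrial membrane, the anti-apoptotic proteins BCL2, BCL-XL (from *Bcl2l1*) and MCL1 bind and restrain them, and the BH3-only proteins release that restraint or activate the effectors directly. In the developing cortex, p53 is known to drive transcription of several pro-apoptotic members when neural progenitor cells (NPCs) carry damaged DNA, with *Bbc3* (PUMA), *Pmaip1* (NOXA) and *Bax* as textbook targets. Much of the family is also controlled at the protein level, by phosphorylation, cleavage, localization and degradation, which RNA counts do not measure.

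The RNA of 10 named genes was followed: the 2 effectors *Bax* and *Bak1*, the 5 BH3-only genes *Bbc3*, *Pmaip1*, *Bid*, *Bad* and *Bcl2l11* (BIM), and the 3 anti-apoptotic genes *Bcl2*, *Bcl2l1* and *Mcl1*. They were chosen by name and matched by Ensembl identifier, and all 10 were present among the 51912 genes listed for each library. The question was whether the RNA levels of these genes, or the balance of pro-apoptotic against anti-apoptotic counts, differed between ctrl, cKO and dKO cortex.

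The cortices were dissected at embryonic day 15.5, and 16 libraries of rRNA-depleted RNA were made from 15 mice of both sexes. The 7 ctrl mice were wild type (5 mice) or heterozygous (2 mice) for *Casc5*, the older symbol of *Knl1*, which encodes a kinetochore protein needed for the spindle checkpoint. The labels give neither the Cre status nor the *Trp53* genotype of the ctrl mice. The 4 cKO mice carried a conditional knockout of *Knl1* driven by hGFAP-Cre, and the 4 dKO mice carried the same knockout together with a conditional knockout of *Trp53*, which encodes p53, also driven by hGFAP-Cre. The hGFAP-Cre transgene recombines in cortical NPCs and is inherited by their descendants, so cells of other origin in the same tissue, such as microglia, vessels and blood, keep both genes. A bulk level is a mean over all of these cells, and fewer cells of a type cannot be told apart from less RNA per cell. The labels place the mice in 4 litters and 3 batches without saying what a batch is, and all 4 dKO mice were in batch 3. Mouse S2 had 2 libraries, which were summed. Below, values of single mice stand in the order 5, 7, S2, F3 for cKO and F1, F7, T2, T8 for dKO.

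Total counts per mouse ranged from 399832 to 3266227 in ctrl, from 4178461 to 8800987 in cKO and from 552186 to 5396803 in dKO, so each cKO mouse had more counts than any ctrl mouse. *Knl1* was at 62.8 ± 13.5 CPM (counts per 1000000 counts of the library, SD, n = 7) in ctrl, 58.2 ± 14.8 in cKO (n = 4) and 49.8 ± 11.6 in dKO (n = 4). *Trp53* was at 30.5 ± 10.6, 28.3 ± 4.26 and 25.1 ± 5.26 CPM. Neither gene passed the test in any comparison (edgeR likelihood ratio test, FDR = 1 throughout), and counts over the whole gene do not isolate the deleted exons, so these values are only a weak check of the labels. The dKO libraries F1 and F7 stood apart in having the largest shares of uniquely placed reads outside genes, 11.2% and 13.3% against 5.86% to 9.52% in the other 14 libraries.

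The zeros in the data have the pattern of counts taken by strand over whole genes, introns included, with reads that fall in 2 genes left out. Of 235 protein-coding genes that lie inside another gene of the same strand without sharing an exon base, 234 were at 0 counts (99.6%), whereas 213 of 786 genes inside a gene of the opposite strand only (27.1%) and 3778 of 20588 genes inside no other gene (18.4%) were at 0. *Sox2*, which lies inside *Sox2ot*, and *Tubb3*, which lies inside *Gm20388*, were at 0 in all 15 mice, so the counts of these markers of radial glia and neurons say nothing about their RNA. Among the 10 genes, *Bax* was the most affected: *Gm45808*, on the same strand, covers 17.6% of its span and 52.0% of its exon bases, so *Bax* was counted mainly on what remains. *Bid* shared 8.40% and *Bcl2* 1.26% of its span with same-strand genes, none of it exonic, and the other 7 shared none.

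The anti-apoptotic genes held most of the family's counts. In ctrl cortex, *Bcl2* was at 168 ± 15.2 CPM, *Bcl2l1* at 87.0 ± 7.17 and *Mcl1* at 63.7 ± 10.6 CPM (SD, n = 7), while the most abundant pro-apoptotic gene, *Bcl2l11*, was at 15.2 ± 4.26 CPM. Levels of different genes are comparable only per length. Per kb of exon, the ctrl means were 19.0 ± 1.56 CPM for *Bcl2l1*, 18.6 ± 3.11 for *Mcl1* and 18.3 ± 1.66 for *Bcl2*, and these 3 did not separate from each other. The lowest of the *Bcl2* values lay above the highest of the *Bax* values, which was the only break between neighbours in the order. Below it followed *Bax* (6.66 ± 4.07), *Bad* (5.13 ± 1.37), *Bak1* (3.25 ± 0.869), *Bbc3* (2.37 ± 1.67), *Bcl2l11* (1.89 ± 0.531), *Bid* (1.73 ± 1.07) and *Pmaip1* (0.134 ± 0.241), each overlapping the next. For *Bax* the full exon length was used, although 52.0% of those bases are shared with *Gm45808*. Per countable base *Bax* would stand higher, so the break between *Bcl2* and *Bax* may not hold.

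Per kb of the whole gene span, which includes introns, the order changed. *Mcl1*, whose span is 4.39 kb, led with 14.5 ± 2.42 CPM per kb and was separate from all others. *Bcl2*, whose span is 176 kb, fell to the fifth place with 0.952 ± 0.0863 CPM per kb, below *Bax* (2.02 ± 1.23), *Bcl2l1* (1.70 ± 0.140) and *Bad* (1.31 ± 0.348). *Pmaip1* was last on both scales. The share of intronic reads in each gene was not measured here, and the place of *Bcl2* and *Bcl2l1* relative to *Mcl1* and *Bax* depends on the scale.

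**Figure D1:**
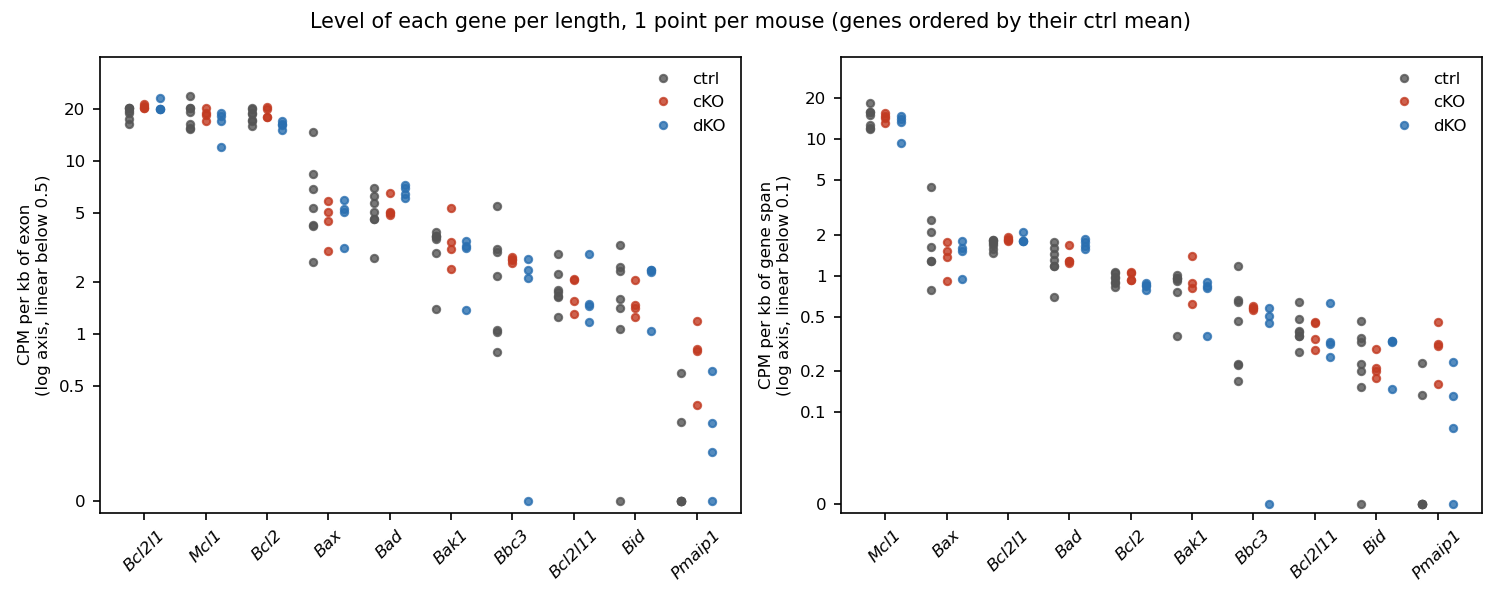
Level of each BCL2 family gene in each mouse, in CPM per kb of exon (left) and CPM per kb of gene span (right), on log axes that are linear near 0, with genes ordered by their ctrl mean. Per kb of exon the ctrl means of *Bcl2l1*, *Mcl1* and *Bcl2* lie above those of the 7 pro-apoptotic genes. *Bax* is divided by its full exon length, part of which is shared with *Gm45808*. Per kb of span *Mcl1* stands alone at the top and *Bcl2* (0.952 CPM per kb in ctrl) lies among the pro-apoptotic genes.

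None of the 10 genes passed an FDR of 0.05 in any comparison (edgeR likelihood ratio test, adjusted over all 51912 listed genes). Against ctrl, 0.16% of all listed genes passed in cKO and 0.0501% in dKO, and 0.052% passed between cKO and dKO. At an unadjusted p below 0.05, 1 of 10 members differed between cKO and ctrl against 4.7% of all genes, 0 of 10 between dKO and ctrl against 3.32%, and 1 of 10 between cKO and dKO against 4.16%. The member was *Pmaip1* in both comparisons. Among genes with at least as many counts as the least counted member, the shares of all genes were 9.96%, 6.96% and 4.71%, so 1 in 10 is near the background. The values of the 2 groups compared did not overlap for 0, 0 and 1 members, beside 0.543%, 0.231% and 1.37% of all genes. These shares include the 24518 listed genes with no count in any library, which cannot separate. The quasi-likelihood test of edgeR and DESeq2 likewise called no member at an FDR of 0.05, with 1 member each at p below 0.05 for cKO against ctrl, 0 for dKO against ctrl and 2 for cKO against dKO. DESeq2 gave no adjusted p for 1 member in the first comparison and for 9 in the second. The median log2 fold change of the 10 genes was 0.04 in cKO against ctrl, −0.12 in dKO against ctrl and 0.17 in cKO against dKO, beside 0.01, 0.04 and −0.01 for all genes with a count.

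**Figure D2:**
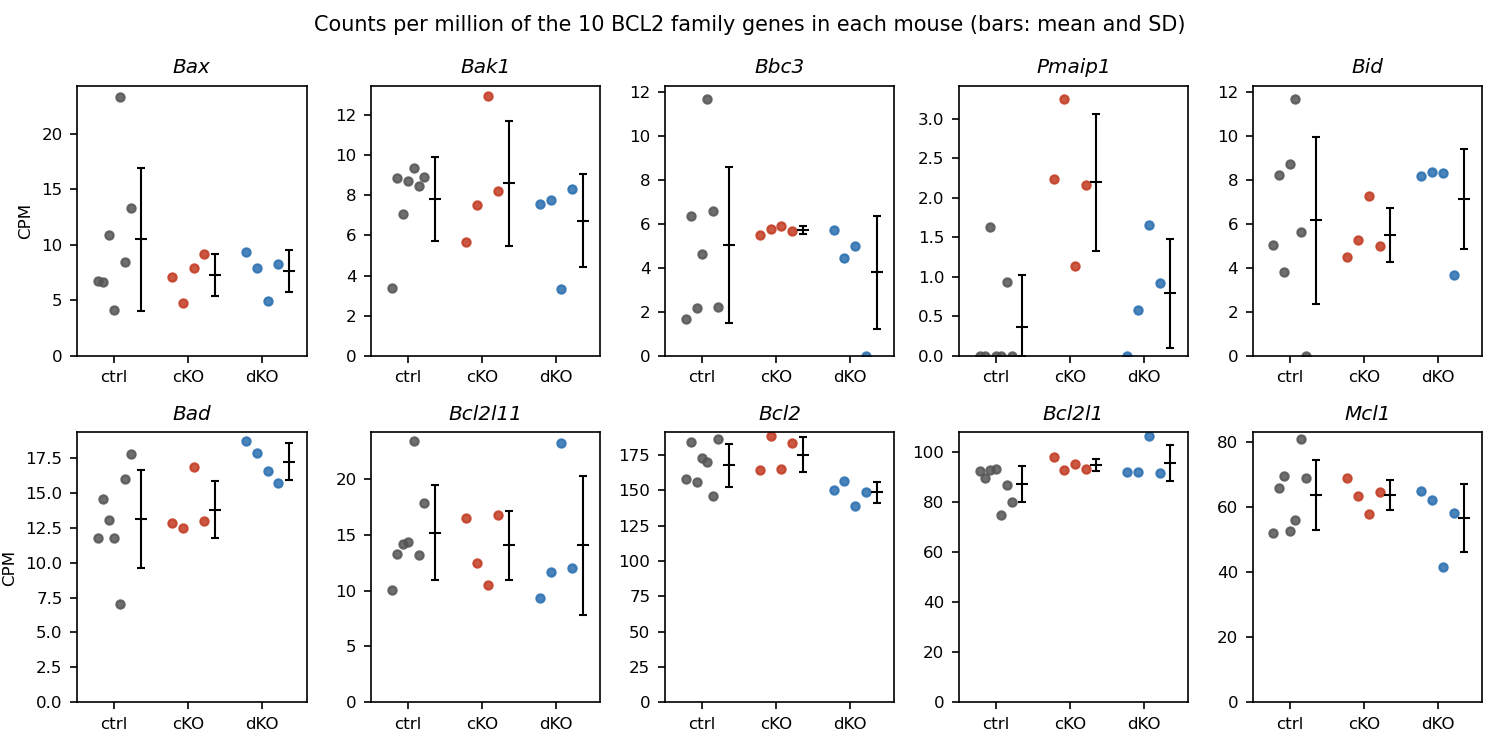
CPM of the 10 genes in each ctrl (grey, n = 7), cKO (red, n = 4) and dKO (blue, n = 4) mouse, with the group mean and SD to the right of each group and every axis starting at 0. The groups overlap in all panels except *Bcl2*, where the cKO mice (164 to 189 CPM) lie above the dKO mice (139 to 157 CPM), and the *Pmaip1* mean is 2.20 CPM in cKO against 0.367 in ctrl and 0.791 in dKO.

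*Pmaip1* encodes NOXA, a BH3-only protein that binds MCL1 and is a transcriptional target of p53. The gene (ENSMUSG00000024521) occupies bases 66458533 to 66465565 of chromosome 18, plus strand, in GRCm38, the build of all positions given here. It was counted 0 times in 5 of the 7 ctrl mice, 3 times in ctrl S1 and once in ctrl T4. The 4 cKO mice had 11 (mouse 5), 13 (mouse 7), 19 (mouse S2) and 5 (mouse F3) counts. The 4 dKO mice had 0 (F1), 3 (F7), 1 (T2) and 1 (T8). All cKO mice therefore had at least 5 counts and no other mouse had more than 3, while the ctrl and most dKO libraries were also shallower. The 2 dKO mice nearest to the cKO mice in depth, F7 (5396803 counts) and F1 (3519529), had 3 and 0, against 11 in cKO 5 (5301380), 5 in cKO F3 (4960141) and 13 in cKO 7 (4178461).

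On the scale of CPM, *Pmaip1* was at 2.23, 3.25, 2.16 and 1.14 in cKO. The ctrl mice ranged from 0 to 1.63 with a median of 0, and the dKO mice were at 0, 0.582, 1.66 and 0.924 CPM. The groups overlapped, because cKO F3 lay below ctrl S1 and below dKO T2, which rested on 3 counts and 1 count. The log2 fold change was 2.23 (SE 0.80, 95% interval 0.77 to 3.91) in cKO against ctrl, with FDR = 0.174 (edgeR likelihood ratio test). It was 2.07 (SE 0.75, 95% interval 0.65 to 3.61) in cKO against dKO, with FDR = 0.449. Between dKO and ctrl it was 0.35 with an interval from −2.11 to 2.87 (FDR = 1), which on a linear scale runs from 0.231-fold to 7.31-fold. Over the alternatives this value ranged from −0.36, without the mice of fewer than 1000000 counts (a choice made after seeing the data), to 1.57, without ctrl S1 (edgeR FDR = 1 for both).

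Summed within groups, *Pmaip1* was counted 4 times in ctrl, 48 times in cKO and 5 times in dKO. This gave 0.422 CPM in ctrl (exact Poisson 95% interval 0.115 to 1.08), 2.17 in cKO (1.60 to 2.88) and 0.493 in dKO (0.160 to 1.15), intervals that cover counting error only. The cKO level was 5.15 times the ctrl level (exact interval for the counts 1.89 to 19.7) and 4.41 times the dKO level (1.76 to 14.2), and the dKO level was 1.17 times the ctrl level (0.251 to 5.89). Depth limited the single mice. A count of 0 allows up to 3 counts, which is between 0.95 and 7.00 CPM in the ctrl mice, against cKO levels of 1.14 to 3.25 CPM, so at this depth a 0 in the shallow ctrl mice does not exclude the cKO level.

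**Figure D3:**
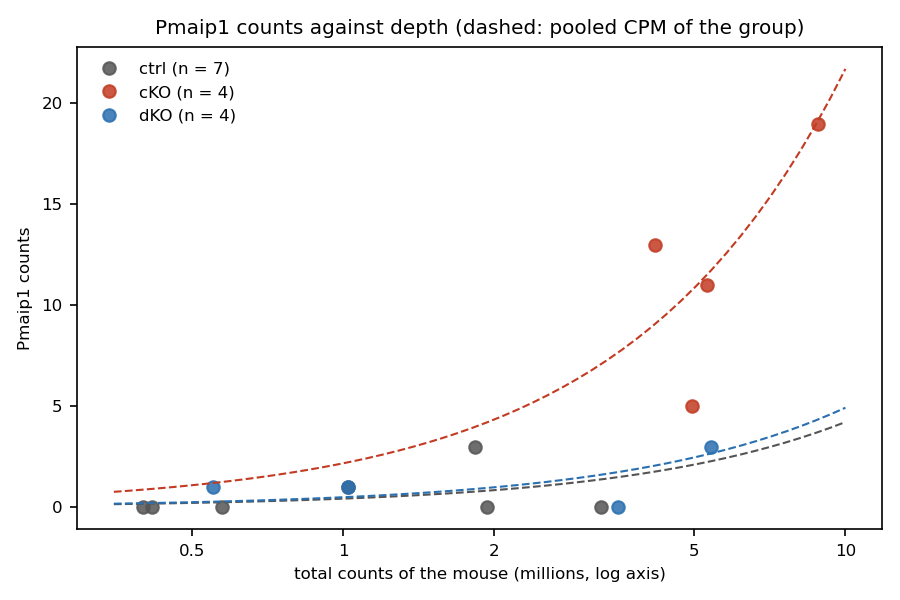
*Pmaip1* counts of each mouse against its total counts on a log axis, with dashed lines at the pooled CPM of each group (2.17 in cKO, 0.422 in ctrl and 0.493 in dKO). The 4 cKO mice have between 5 and 19 counts and the other 11 mice between 0 and 3, while the cKO mice also lie at the right of the plot, where depth is highest.

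In litters 1, 2 and 4, which held cKO mice, the pooled *Pmaip1* level was highest in cKO. In litter 1 the 2 ctrl mice had 0 counts and the 2 cKO mice 24, and in litter 2 the 2 ctrl mice had 3 (0.791 CPM) and cKO S2 had 19 (2.16 CPM). In litter 4 the 2 dKO mice had 3 counts (0.354 CPM) and cKO F3 had 5 (1.14 CPM), a ratio of 3.21 whose counting interval, 0.624 to 20.7, includes 1. In litter 3, without cKO, the ctrl mice had 1 and the dKO mice 2 counts. Batch 1 held 3 ctrl mice with 0 counts and 3 cKO mice with 43. The pooled cKO level, 2.43 CPM, was 4.62 times the 0.526 CPM that 3 counts over the 3 ctrl mice would give. That ratio is not a lower limit, because it leaves out counting error. The exact Poisson intervals in batch 1 were 1.76 to 3.27 CPM in cKO and 0 to 0.646 CPM in ctrl.

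The call on *Pmaip1* in cKO against ctrl depended on the fit. It passed with batch as a covariate (log2 fold change 3.62, edgeR FDR = 0.0230), in batch 1 alone (FDR = 0.0142) and without ctrl S1, the mouse with 3 of the 4 ctrl counts (3.66, FDR = 0.0237). It did not pass with litter as a covariate (2.51, FDR = 0.183) or without the 4 mice of fewer than 1000000 counts (2.04, FDR = 0.455, an alternative added after seeing the data), and over all alternatives the FDR ranged from 0.0142 to 0.651. In cKO against dKO it passed in no alternative, and the log2 fold change was 1.15 with batch as a covariate, 1.03 in batch 3 alone, where cKO is 1 mouse, and 0.85 without dKO F1 and F7, a choice made after seeing the data.

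Values that move with the cKO group stood beside *Pmaip1*, and their part in its level was not tested. The summed CPM of 7 interneuron markers was between 2944 and 4292 in cKO against 1998 to 2562 in ctrl and 2131 to 2672 in dKO, with *Gad1* and *Erbb4* higher in cKO than in ctrl. The sum of 4 intermediate progenitor markers was between 44.7 and 91.9 CPM in cKO against 97.4 to 156 in ctrl and 69.3 to 124 in dKO, with *Eomes* and *Neurog2* lower in cKO. Microglial markers (8 genes, 13.0 to 25.4 CPM in cKO, 7.06 to 22.2 in ctrl, 12.9 to 26.5 in dKO), radial glial markers (7 genes, 385 to 518, 368 to 635 and 412 to 607 CPM), excitatory neuron markers (6 genes, 1683 to 2162, 1496 to 1849 and 1514 to 2046 CPM) and endothelial markers (5 genes, 63.5 to 84.1, 56.5 to 107 and 61.3 to 152 CPM) had no gene past the threshold in any comparison. At an unadjusted p below 0.05 (edgeR likelihood ratio test), 3 of the 7 radial glial markers differed between cKO and ctrl, all lower in cKO. The share of all listed genes at this p was 4.7%, and *Sox2*, 1 of the 7, could not be counted. Of the 8 microglial markers, 1 was higher at this p in cKO and 2 in dKO than in ctrl. The 5 genes of meninges and choroid plexus summed to 1.14 to 3.64 CPM in cKO, 0.543 to 70.0 in ctrl and 2.72 to 84.1 in dKO, with *Ttr* lower in cKO than in either group. The 7 erythroid genes summed to 18.0 to 28.9 CPM in cKO, 10.4 to 26.1 in ctrl and 24.9 to 31.4 in dKO, with *Hba-a2* higher in dKO than in ctrl.

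Of the effectors, *Bax* encodes the protein that moves from the cytosol to the mitochondrial membrane, and *Bak1* the one that resides there. *Bax* (chromosome 7, 45461697 to 45466898, minus strand) ranged from 4.10 to 23.3 CPM in ctrl with a median of 8.47. It was at 7.11, 4.75, 9.21 and 7.96 CPM in cKO, and at 9.36, 7.96, 4.97 and 8.32 CPM in dKO. The highest ctrl value, in mouse T3, rested on 10 counts, and the ctrl range enclosed all cKO and dKO mice. In cKO against ctrl *Bax* had a log2 fold change of −0.29 (95% interval −0.89 to 0.32, edgeR FDR = 1), whose upper end is a 1.24-fold rise. It was −0.14 (−0.82 to 0.54, edgeR FDR = 1) in dKO against ctrl and −0.12 (−0.68 to 0.44, FDR = 1) in cKO against dKO. In dKO against ctrl *Bax* was at −0.93 with litter as a covariate, −0.74 with batch as a covariate and −0.76 in batch 3 alone (edgeR FDR = 1 each), and the pooled levels in litter 3 were 12.9 CPM in ctrl and 7.12 in dKO. Batch 1 alone gave 0.35 in cKO against ctrl (edgeR FDR = 1).

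Sequences upstream of the members were searched for the p53 half-site, and that of *Bax* is printed because it alone held a match. Promoter windows from RefSeq (GRCm38.p6, 250 bases before to 50 after a start, read on both strands) were at hand for 9 of the 10 genes, 15 windows in all, and were searched for exact matches to the p53 half-site, a palindromic consensus. The gene without a window was *Pmaip1*, so its promoter was not searched. Of the 15 windows, 1 held a match, that of *Bax*, beside 8.36% of all 32851 windows, so 1 in 15 is near the background. The windows of *Bbc3*, also a textbook target, held none. The 250 bases before the *Bax* start, chr7:45466899-45467148 on the minus strand, are printed 5′ to 3′ with the match in capitals, which begins 201 bases before the start. A match to these letters is a description of the sequence and does not show binding.
Bax: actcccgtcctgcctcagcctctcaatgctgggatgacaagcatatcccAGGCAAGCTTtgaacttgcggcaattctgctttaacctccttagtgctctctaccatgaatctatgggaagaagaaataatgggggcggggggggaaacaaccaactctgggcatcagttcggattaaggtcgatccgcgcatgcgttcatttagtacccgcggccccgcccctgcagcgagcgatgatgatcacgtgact

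*Bak1* (chromosome 17, 27019810 to 27029009, minus strand) ranged from 3.36 to 9.34 CPM in ctrl with a median of 8.71. It was at 5.69, 7.50, 8.19 and 13.0 CPM in cKO, and at 7.55, 7.76, 3.32 and 8.32 CPM in dKO. The groups overlapped, and its log2 fold change was 0.08 (−0.47 to 0.64) in cKO against ctrl, −0.12 (−0.72 to 0.47) in dKO against ctrl and 0.24 (−0.37 to 0.86) in cKO against dKO, each with an edgeR FDR of 1. In cKO the spread between mice exceeded counting error, with a chi-square of 5.17 per degree of freedom, and mouse F3 of batch 3 held the highest value. In cKO against dKO *Bak1* was at 0.83 with batch as a covariate and 0.77 with litter (edgeR FDR = 1 for both), and at 0.84 in batch 3 alone (edgeR FDR = 1), where F3 is the 1 cKO mouse. In litter 4, F3 was at 13.0 CPM and the dKO mice at 7.68 CPM pooled.

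*Bbc3* encodes PUMA, a BH3-only protein that binds all anti-apoptotic members. The gene spans bases 16308393 to 16318205 of chromosome 7 (plus strand). The cKO mice were close together at 5.48, 5.75, 5.69 and 5.91 CPM, on 23 to 50 counts each. The ctrl mice ranged from 1.68 to 11.7 CPM with a median of 4.61, on 1 to 20 counts each, and the dKO mice were at 5.74, 4.46, 4.97 and 0 CPM, where the 0 of T8 allows up to 2.77 CPM. The ctrl range enclosed all cKO values and all but the lowest dKO value. For *Bbc3* the log2 fold change was 0.20 in cKO against ctrl (95% interval −0.39 to 0.80), −0.24 in dKO against ctrl (−1.17 to 0.68) and 0.41 in cKO against dKO (−0.21 to 1.04), each with an edgeR FDR of 1. On a linear scale the first interval runs from 0.765-fold to 1.74-fold. With litter as a covariate *Bbc3* was at −1.81 in dKO against ctrl (edgeR FDR = 1), and in litter 3, the litter with both groups, the pooled level was 6.70 CPM in ctrl (13 counts) and 1.78 in dKO (3 counts). Without dKO F1 and F7, a choice made after seeing the data, the values were −1.32 in dKO against ctrl (edgeR FDR = 1) and 1.64 in cKO against dKO (edgeR FDR = 0.648).

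*Bad* encodes a BH3-only protein that growth factor signalling holds inactive by phosphorylation, and it had the smallest p of the 10 in dKO against ctrl. It spans bases 6941861 to 6951899 of chromosome 19 (plus strand). In dKO it was at 18.7, 17.9, 16.6 and 15.7 CPM, and in cKO at 12.8, 12.5, 13.0 and 16.8 CPM. The ctrl mice ranged from 7.00 to 17.8 CPM with a median of 13.0. The dKO mice F1 and F7 lay above the highest ctrl mouse, F7 only just, while T2 and T8 lay inside the ctrl range. All dKO mice lay above 3 of the 4 cKO mice. *Bad* had a log2 fold change of 0.39 in dKO against ctrl (95% interval −0.05 to 0.85), of −0.35 in cKO against dKO (−0.75 to 0.05) and of 0.02 in cKO against ctrl (−0.39 to 0.43), with an edgeR FDR of 1 each. The cKO mouse with the dKO-like value, F3, shared litter 4 and batch 3 with dKO F1 and F7, while all 4 dKO mice were in batch 3.

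*Bid* encodes a protein that caspase-8 cleaves to an active form, linking death receptors to mitochondria. Its gene spans bases 120891930 to 120916853 of chromosome 6 (minus strand). It was at 4.47, 5.25, 5.01 and 7.27 CPM in cKO and at 8.15, 8.34, 8.29 and 3.70 CPM in dKO. Of the dKO mice, 3 of 4 lay above all cKO mice, and T8, on 4 counts, lay below them. In cKO against dKO *Bid* had a log2 fold change of −0.45 (95% interval −1.03 to 0.11, edgeR FDR = 1). Against ctrl, which ranged from 0 to 11.7 CPM with a median of 5.65, it was −0.28 (−0.87 to 0.31) in cKO and 0.19 (−0.51 to 0.90) in dKO, both with an edgeR FDR of 1.

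*Bcl2l11* encodes BIM, which binds all anti-apoptotic members and can activate the effectors. It was counted over bases 128126038 to 128162547 of chromosome 2 (plus strand). The ctrl mice ranged from 10.1 to 23.3 CPM with a median of 14.1, the cKO mice were at 16.5, 12.5, 16.7 and 10.5 CPM and the dKO mice at 9.36, 11.6, 23.2 and 12.01 CPM. The highest ctrl value (T3) and the highest dKO value (T2) came from libraries of 399832 and 552186 counts, on 10 and 14 counts. All groups overlapped, and the log2 fold change was −0.03 (−0.46 to 0.40) in cKO against ctrl, −0.23 (−0.74 to 0.28) in dKO against ctrl and 0.22 (−0.29 to 0.73) in cKO against dKO (edgeR FDR = 1 each).

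**Figure D4:**
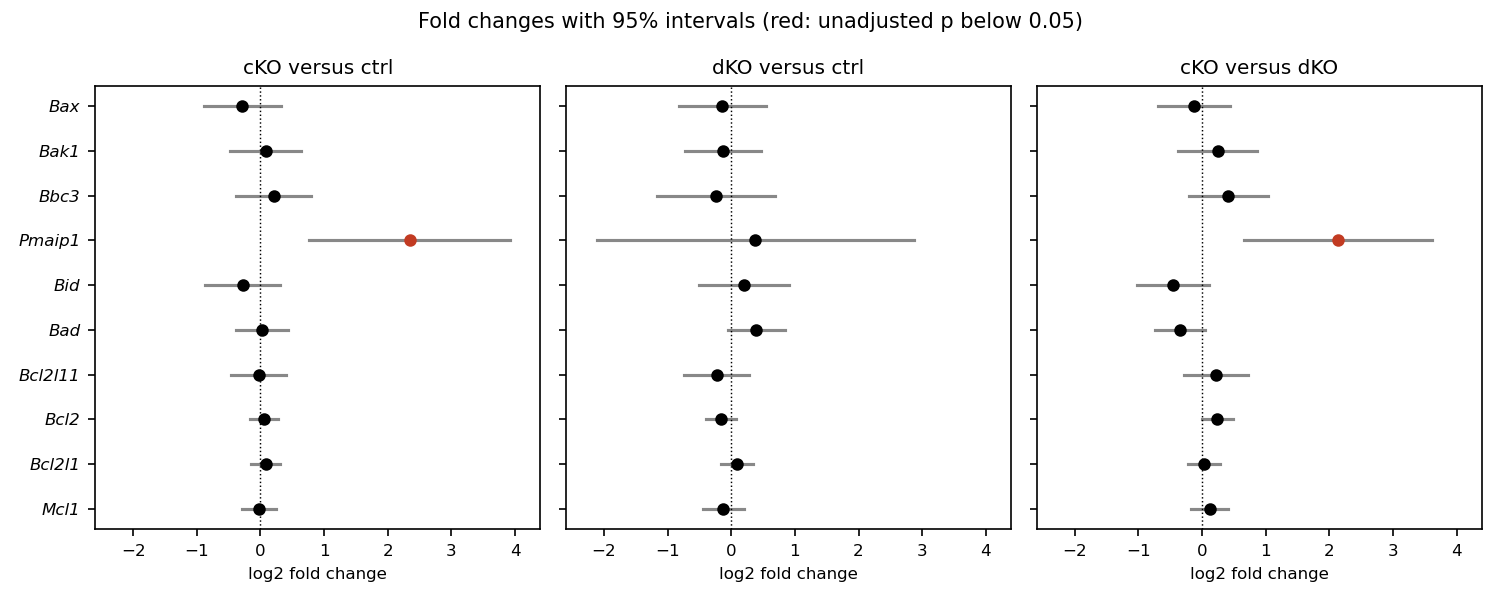
Log2 fold change of each gene (fitted without a prior count) with its 95% interval in the 3 comparisons, with unadjusted p below 0.05 in red. Only the intervals of *Pmaip1* in cKO against ctrl (0.77 to 3.91) and in cKO against dKO (0.65 to 3.61) exclude 0, and the anti-apoptotic genes, with the most counts, have the narrowest intervals.

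*Bcl2*, the founding anti-apoptotic member, is transcribed from chromosome 1 from 106538178 to 106714274 on the minus strand. In cKO it was at 164, 189, 183 and 165 CPM, in dKO at 150, 157, 139 and 149 CPM, and in ctrl between 146 and 187 CPM with a median of 170. The cKO and dKO mice did not overlap, which held for 1 of the 10 members and for 1.37% of all listed genes. That share includes the 24518 genes with no count in any library, which cannot separate. The share among genes counted as often as *Bcl2* was not computed. *Bcl2* had a log2 fold change of 0.24 in cKO against dKO (95% interval −0.01 to 0.49, edgeR FDR = 1), whose upper end is 1.41-fold. The dKO mice were all in batch 3, and the 1 cKO mouse of batch 3, F3, at 165 CPM, also lay above all of them. Batch and genotype cannot be told apart for the other 3 cKO mice. Against ctrl the log2 fold change of *Bcl2* was 0.05 (−0.17 to 0.27) in cKO and −0.16 (−0.39 to 0.08) in dKO, with an edgeR FDR of 1 for both.

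*Bcl2l1* encodes BCL-XL, on which young neurons are known to depend for survival. It occupies bases 152780668 to 152831728 of chromosome 2 (minus strand). Its level lay between 74.7 and 93.2 CPM in ctrl with a median of 89.6, and it was at 97.7, 92.5, 92.9 and 95.2 CPM in cKO and at 92.1, 92.0, 106 and 91.5 CPM in dKO. Its spread between mice was no larger than counting error, with a chi-square between 0.317 and 0.409 per degree of freedom in the 3 groups. For *Bcl2l1* the log2 fold change was 0.08 (−0.15 to 0.30) in cKO against ctrl, 0.09 (−0.16 to 0.35) in dKO against ctrl and 0.02 (−0.23 to 0.28) in cKO against dKO (edgeR FDR = 1 each). The largest upper end of these intervals is 1.27-fold.

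*Mcl1* encodes a short-lived anti-apoptotic protein on which cortical NPCs are known to depend. It spans bases 95658788 to 95663176 of chromosome 3 (plus strand). It ranged from 52.1 to 80.9 CPM in ctrl with a median of 65.8, and was at 68.9, 63.3, 64.6 and 58.0 CPM in cKO and at 64.9, 62.1, 41.4 and 58.2 CPM in dKO. The lowest value, in dKO T2, rested on 25 counts, and the groups overlapped. Its log2 fold change was −0.03 (−0.29 to 0.24) in cKO against ctrl, −0.12 (−0.44 to 0.20) in dKO against ctrl and 0.12 (−0.17 to 0.42) in cKO against dKO (edgeR FDR = 1 each). The summed *Mcl1* counts were 153 times the *Pmaip1* counts in ctrl, 29.5 times in cKO and 125 times in dKO.

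The balance of the family was described by the counts of the 7 pro-apoptotic genes divided by those of the 3 anti-apoptotic genes in each mouse, a quantity in which library size cancels. In ctrl there were 0.183 ± 0.0495 pro-apoptotic counts per anti-apoptotic count (SD, n = 7), in cKO 0.171 ± 0.0198 (n = 4) and in dKO 0.191 ± 0.0227 (n = 4). In ctrl the lowest value was 0.128 (mouse 2), the median 0.171 and the highest 0.287 (T3). The cKO mice were at 0.164, 0.150, 0.176 and 0.196 and the dKO mice at 0.192, 0.188, 0.220 and 0.164. The ctrl range enclosed all cKO and dKO mice. No p was computed for this score.

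As a share, the pro-apoptotic genes made up 14.6 ± 1.44% of the family's counts in cKO, 15.4 ± 3.37% in ctrl and 16.0 ± 1.60% in dKO. The mice with the lowest and the highest shares, ctrl 2 (11.3%, exact 95% interval 7.32 to 16.5) and ctrl T3 (22.3%, 16.2 to 29.4), had 203 and 166 family counts in all, against 1583 to 3524 in the cKO mice.

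**Figure D5:**
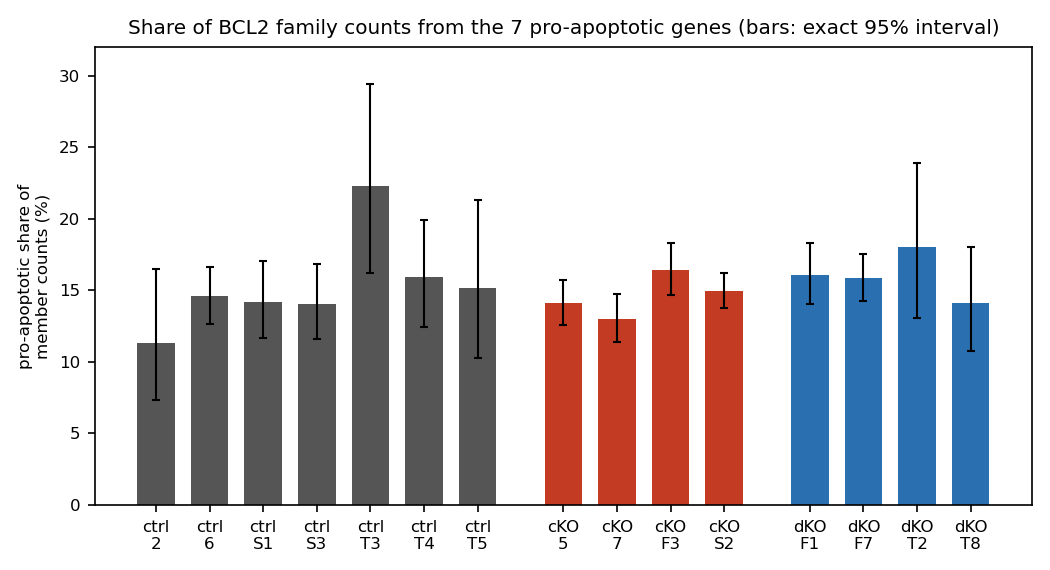
Share of the family's counts that came from the 7 pro-apoptotic genes in each mouse, with exact binomial 95% intervals that cover counting error only. The cKO mice (13.0% to 16.4%) and the dKO mice (14.1% to 18.0%) lie inside the range of the ctrl mice (11.3% to 22.3%), whose intervals are the widest.

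The log2 ratio differed by −0.06 between cKO and ctrl, by 0.09 between dKO and ctrl and by −0.15 between cKO and dKO, where the SD between mice within groups was 0.302, 0.303 and 0.169. *Pmaip1* contributed little to this sum, at 0.560% of the family's counts in cKO, 0.0988% in ctrl and 0.224% in dKO. Each gene was also weighed equally, by the mean log2 CPM of the pro-apoptotic minus that of the anti-apoptotic genes. The differences were then 0.21, 0.11 and 0.10 in the same order. The sign in cKO against ctrl and in cKO against dKO therefore turned with the weighing. *Pmaip1*, with 4 counts in all ctrl mice, weighs as much here as any other pro-apoptotic gene. Its log2 fold change was 2.23 in cKO against ctrl, where the other pro-apoptotic genes lay between −0.29 and 0.20. In cKO against dKO it was 2.07, where they lay between −0.45 and 0.41. The turned sign does not describe a rise shared by the pro-apoptotic genes. *Bcl2* held 44.5 ± 2.99% of the family's counts in ctrl, 44.8 ± 2.29% in cKO and 41.5 ± 1.39% in dKO. With *Bcl2* left out, a choice made after seeing the data, the differences were −0.07, −0.01 and −0.06.

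Around the 10 members, 15 further BCL2 family genes, 10 mitochondrial partners and 20 regulators of the members were read from the same fits, and none of them passed an FDR of 0.05 in any comparison. At an unadjusted p below 0.05 there were 1, 0 and 1 of the family genes, 0, 0 and 0 of the partners and 1, 0 and 2 of the regulators in cKO against ctrl, dKO against ctrl and cKO against dKO. Over all listed genes the shares at this p were 4.7%, 3.32% and 4.16%, so these counts are near the background. Of the 15 family genes, 10 had a count in any mouse. *Bcl2l2*, which encodes the anti-apoptotic BCL-W, was at 0 in all mice, but 98.7% of its span lies inside *Gm20521* on the same strand, so its RNA was not measured here.

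Among the regulators, *Mapk10*, which encodes the neuronal kinase JNK3 that phosphorylates BH3-only proteins, came nearest. It was at 474 ± 40.3 CPM in ctrl, 662 ± 79.5 in cKO and 507 ± 85.7 in dKO, with no overlap between cKO and ctrl (lowest cKO 558, highest ctrl 534 CPM). The cKO and ctrl mice also did not overlap for *Mapk8* (log2 fold change 0.20, SE 0.11) and *Mapk9* (0.21, SE 0.12) of the same list. Their unadjusted p was 0.0654 and 0.0778 (edgeR likelihood ratio test). Groups did not overlap for 0.543% of all listed genes. That share includes the 24518 genes with no count in any library, which cannot separate, so it is low for genes with counts. The log2 fold change of *Mapk10* was 0.46 (SE 0.12, edgeR FDR = 0.0540) in cKO against ctrl and 0.39 (SE 0.16, edgeR FDR = 0.837) in cKO against dKO. *Apaf1*, which encodes the apoptosome scaffold downstream of cytochrome c, had levels of 61.8 CPM in ctrl, 66.2 in cKO and 53.8 in dKO, with a log2 fold change of 0.29 (edgeR FDR = 1) in cKO against dKO. *Bcl2l10*, the family gene with the smallest p in cKO against ctrl, rested on 3 counts in ctrl, 0 in cKO and 3 in dKO. In dKO against ctrl, the smallest p of each list belonged to *Hrk*, a BH3-only gene of neurons (9.17 against 7.45 CPM, log2 fold change 0.33), *Cycs*, which encodes cytochrome c (log2 fold change 0.72), and *Ddit3*, which encodes the stress factor CHOP (log2 fold change 0.62), each with an edgeR FDR of 1.

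A further 14 p53 target genes outside the family were read from the same fits for comparison. The 5 that passed in cKO against ctrl were all called by the study in these same mice. Neither their passing nor their direction is therefore independent evidence. Of the 14, 5 passed in cKO against ctrl and 6 in cKO against dKO, all higher in cKO, and 0 passed in dKO against ctrl. Over all listed genes the shares that passed were 0.16% in cKO against ctrl, 0.052% in cKO against dKO and 0.0501% in dKO against ctrl. *Cdkn1a*, which encodes the cell cycle inhibitor p21, rose from 1.73 ± 1.87 CPM in ctrl to 7.99 ± 1.56 in cKO and was at 1.71 ± 0.567 in dKO, a log2 fold change of 1.70 (SE 0.38, edgeR FDR = 0.00366) against ctrl. *Eda2r*, which encodes a death receptor of the TNF family, rose from 2.19 ± 2.34 to 11.8 ± 3.15 CPM and was at 1.60 ± 0.858 in dKO, a log2 fold change of 2.69 (SE 0.43, edgeR FDR = 1.1e-08). *Ano3* rose from 15.5 to 59.1 CPM (log2 fold change 2.06, edgeR FDR = 7.1e-23) and *Pvt1* from 32.5 to 69.5 CPM (edgeR FDR = 2.9e-08). The fifth, *Ccng1*, is named to complete the count and rose from 13.3 to 22.8 CPM (0.86, edgeR FDR = 0.0427). At an unadjusted p below 0.05 (edgeR likelihood ratio test), 11 of the 14 were higher in cKO than in ctrl. The share of all listed genes at this p, in either direction, was 4.7%. The genes without such a p were *Mdm2* (log2 fold change 0.04), *Trp53inp1* (0.11) and *Perp* (−0.24). The median log2 fold change of the 14, which include the 5 called by the study, was 1.03 in cKO against ctrl. For the 10 BCL2 family members the median was 0.04, and only *Pmaip1*, at 2.23, lay above 1.03. These 2 medians are not a test of the members, because the 5 genes that raise the first were called in these same mice.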

How the data were processed

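The authors made rRNA-depleted ClickSeq libraries with unique molecular identifiers from random-primed RNA of embryonic day 15.5 cortex, aligned reads to GRCm38/mm10 with STAR (2.5.2a), removed duplicates with UMI-tools (0.5.3) and deposited htseq-count (0.6.1p1, intersection-nonempty) counts per gene, without normalization. The annotation release and the feature and strand options of counting are not given in the sources used here. Symbols and coordinates came from GENCODE M21 (GRCm38). Libraries S2 and S2b of 1 mouse were summed.

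Genes were tested with edgeR 4.0.16 (glmFit and glmLRT, TMM, no covariate, prior count 0.125 for fold changes) on the mice of the 2 groups compared, with Benjamini-Hochberg adjustment over 51912 genes. CPM used TMM factors. Intervals (95%) come from standard errors of the fit without a prior count. Alternatives were the quasi-likelihood test, DESeq2 1.42.0, other scalings, filterByExpr, batch, litter or sex as covariates, subsets and leaving out each mouse. Whether the counts cover introns was checked on genes nested in other genes. The fit alone was tested on simulated counts, with 200 changed genes drawn above a level that *Bax*, *Bak1*, *Bbc3*, *Bid* and *Pmaip1* do not reach. That test does not cover changes in genes as low as these. The members and lists were chosen with earlier results of these data known. All 10 members are named in every comparison, and from each other list the genes past the threshold (at most 5, or 4 by smallest p for p53 targets) or the gene with the smallest p. Some further genes, among them *Mapk8* and *Mapk9*, are named outside this rule. Each p-value tests a difference between groups, with a dispersion estimated from the spread between mice and moderated across genes. The main fit has no litter or batch term, so it treats littermates as independent.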

Additional observations from a re-analysis of the deposited data

Results flagged for a closer look

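The sets of values were the 10 genes and the pro-apoptotic to anti-apoptotic ratio in 3 groups. In 6 of these 33 sets, 1 mouse stood farther from the others than Dixon's 95% limit. Chance flags about 1 in 20 where all values share 1 normal spread. Mice of such unequal depth do not meet that condition, so 6 of 33 cannot be set against this rate. *Bak1* was low in ctrl mouse 2 (3.36 CPM, 2 counts) and in dKO mouse T2 (3.32 CPM, 2 counts). *Bid* was low in dKO mouse T8 (3.70 CPM, 4 counts), and *Bcl2l1* was high in dKO mouse T2 (106 CPM, 64 counts). *Bad* was high in cKO mouse F3 (16.8 CPM, 74 counts), the 1 cKO mouse of batch 3. The ratio was high in ctrl mouse T3 (0.287), which had 166 counts over the family.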

How the results depend on the processing

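Of 71 alternative fits, 68 called no member at an FDR of 0.05. The count for cKO against ctrl became 1 (*Pmaip1*) with batch as a covariate and 1 in batch 1 alone, and ranged from 0 to 1 when each mouse was left out in turn (1 without ctrl S1). The groups share no replicate numbers, so mice were not paired by number, and litter as a covariate was the blocked fit. The filter filterByExpr removed *Pmaip1* and left 9, 5 and 9 members. Leaving out mice of fewer than 1000000 counts or dKO F1 and F7 were choices made after seeing the data. Of 703 refitted log2 fold changes of single members, 640 kept their direction and 63 changed it, none of them called.

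In cKO against ctrl, the sign turned with litter as a covariate (*Bax* 0.079, *Bak1* −0.10, *Bad* −0.053, *Bcl2l11* 0.21, *Mcl1* 0.079), in batch 1 alone (*Bax* 0.35, *Bak1* −0.14, *Bad* −0.027, *Bcl2l11* 0.23, *Mcl1* 0.18) and without TMM (*Bak1* −0.0092, *Bad* −0.066, *Bcl2* −0.047, *Bcl2l1* −0.015). It also turned without mice of fewer than 1000000 counts (*Bax* 0.021, *Bcl2l11* 0.059), with wild-type ctrl only (*Bcl2l11* 0.0078, *Mcl1* 0.082), with batch as a covariate (*Mcl1* 0.017), with library S2 alone (*Bcl2l11* 0.026), and for *Bad* with DESeq2 (−0.014), its size factors (−0.015) and filterByExpr (−0.020). In dKO against ctrl it turned without mice of fewer than 1000000 counts (*Bax* 0.22, *Pmaip1* −0.36), with litter (*Bid* −0.047) and without F1 and F7 (*Bid* −0.22, *Bcl2l11* 0.205). In cKO against dKO it turned without F1 and F7 (*Bax* 0.072, *Bid* 0.0025, *Bcl2l11* −0.22, *Bcl2l1* −0.052), with batch (*Bcl2l11* −0.20, *Mcl1* −0.014), with litter (*Bcl2l11* −0.0086, *Mcl1* −0.11), in batch 3 alone (*Bcl2l11* −0.24, *Mcl1* −0.00042), and for *Bcl2l1* with DESeq2 (−0.016), its size factors (−0.024), no TMM (−0.074), filterByExpr (−0.029) and library S2b alone (−0.0061). Leaving out each mouse gave ranges that include 0 in cKO against ctrl for *Bak1* (−0.16 to 0.24), *Bad* (−0.081 to 0.083), *Bcl2l11* (−0.13 to 0.095) and *Mcl1* (−0.083 to 0.038), in dKO against ctrl for *Bax* (−0.31 to 0.075), *Bbc3* (−0.54 to 0.041) and *Pmaip1* (−0.058 to 1.57), and in cKO against dKO for *Bax* (−0.31 to 0.018), *Bak1* (−0.013 to 0.39) and *Bcl2l1* (−0.0071 to 0.045). The cause was not tested for any of these.

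The log2 ratio difference moved by more than the SD between mice with equal weight per gene and a prior count of 0.5 (0.43 in cKO against ctrl, 0.25 in cKO against dKO). In cKO against dKO it moved with equal weight per gene (0.10) and in batch 3 alone (0.048), and it turned sign in cKO against ctrl in batch 1 alone (0.09) and without ctrl T3 (0.05). Leaving out each mouse gave −0.14 to 0.05 in cKO against ctrl, 0.01 to 0.21 in dKO against ctrl and −0.23 to −0.09 in cKO against dKO.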
